A study of Mus musculus with 9 samples.

Results

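The proteasome genes were taken as every gene of the deposited table whose symbol starts with Psma, Psmb, Psmc, Psmd, Psme, Psmf or Psmg followed by a digit. The rule found 45 of the 7197 genes in the table, and symbols that contain -ps would have been dropped, but none was listed. All 45 passed the filter on low values used for testing. By the role of their proteins they were 7 alpha-ring subunits, 4 non-catalytic beta-ring subunits, 3 constitutive catalytic subunits (Psmb5, Psmb6 and Psmb7), 3 interferon-inducible catalytic subunits (Psmb8, Psmb9 and Psmb10), 6 ATPases and 3 other subunits of the base, 8 lid subunits, 4 genes of activators (Psme1, Psme2, Psme3 and Psme4), the inhibitor gene Psmf1 and 5 assembly chaperones. The last member, Psme3ip1, shares only the prefix and encodes a protein that binds PA28 gamma.

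The proteasome is the barrel-shaped protease that degrades proteins tagged with ubiquitin. Rings of alpha subunits gate the barrel and rings of beta subunits carry the cutting sites. A base of ATPases unfolds the substrate and feeds it into the barrel, and a lid removes the ubiquitin chain. In cells of the immune system the 3 constitutive catalytic subunits can be replaced by the products of Psmb8, Psmb9 and Psmb10 to form the immunoproteasome, which favours the cuts that yield peptides for class I antigen presentation. PA28 and PA200 are activators that bind the barrel in place of the base and lid. Proteasome activity and subunit transcription are both linked in textbooks to mTORC1 signalling, the pathway altered in these mice.

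RNA came from bone marrow neutrophils of C57BL/6 mice aged 2 months, sorted as CD45+ CD11b+ Ly6G+ cells. The Rragc+/+ group held 5 libraries and the RragcS74N/+ group 4. RragcS74N/+ mice carry 1 germline knock-in allele made by CRISPR editing, in which asparagine replaces serine at position 74 of RagC and mimics the active, GDP-bound form of this Rag GTPase, so every cell type of the donor carried it and not only the neutrophils. Neither group received a treatment according to the labels, and the sex of the donors was not given there. The study describes the samples as neutrophils of separate mice, whereas the labels do not tie a library to a mouse. The study states 5 mice of each genotype, whereas the deposited values held 4 RragcS74N/+ libraries, and only these 4 were analysed. Libraries were read from the 3′ end of transcripts, so a transcript's length does not set its number of reads, and levels of different genes were set side by side without scaling by length.

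The 9 libraries held between 1214295 and 1973957 reads over the listed genes, and proteasome genes took between 0.346% and 0.448% of them. Rragc itself had a normalised read count between 61.9 and 87.6 in Rragc+/+ and between 51.8 and 72.1 in RragcS74N/+. These counts do not check the genotype, because a count per gene does not tell the edited allele from the other. Rragc+/+ replicate 2 stood apart, with a mean Spearman correlation to the other libraries of 0.891, against 0.929 to 0.951 for the other 8. The 10 listed neutrophil markers, Ly6g, Itgam, S100a8 and S100a9 among them, were present in every library and none passed an unadjusted p of 0.05. None of 6 B cell markers was listed, 1 of 7 T and NK cell markers was, and 1 of 5 monocyte markers was. Of 7 erythroid genes 6 were listed. Of these, 5 were lower in RragcS74N/+ with a limma unadjusted p under 0.05, beside 3.81% of all genes tested. The other, Car2, had a log2 change of 0.58 (SE 0.76). The summed level of the 6 was 1090 to 5585 in Rragc+/+ and 378 to 2147 in RragcS74N/+. Of 7 eosinophil and basophil genes 5 were listed, 4 of them with a higher mean in RragcS74N/+. Among these, 1 was higher with an unadjusted p under 0.05, beside 2.01% of all genes. The 5 summed to 113 to 426 and 122 to 583. In bulk RNA of this kind, fewer cells of a type and less RNA per cell cannot be told apart.

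No proteasome gene differed between the genotypes after adjustment over all genes. Each gene was tested with limma on log2 of the normalised read count plus 1, and p-values were adjusted by Benjamini-Hochberg over 6673 genes. 0 of 45 members had an adjusted p under 0.05, as did 0 genes of the whole table (0%), and the smallest adjusted p of a member was 0.713. At an unadjusted p under 0.05, 3 of 45 members passed, or 6.67%, against 388 of 6673 genes (5.81%). DESeq2 on the recovered reads called 3 members at the same unadjusted level (6.7% of all genes) and edgeR called 2 (6.89% of all genes), and neither called any after adjustment. The share was therefore close to the background. Psmf1 and Psmd4 were lower in RragcS74N/+, where the background was 3.81%, and Psme2 was higher, where it was 2.01%. Among the members 21 had a negative and 24 a positive log2 change. The median of their log2 changes was 0.024, and so was that of all genes tested.

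**Figure D1:**
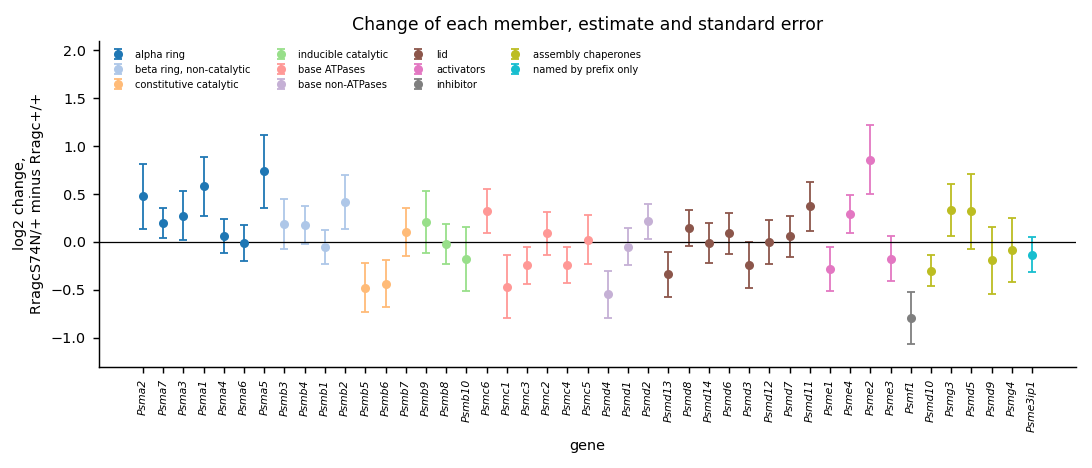
Log2 change of each of the 45 members (RragcS74N/+ minus Rragc+/+, on log2 of the normalised read count plus 1), coloured by structural group. Points are limma estimates and bars are 1 standard error. The estimates lie on both sides of 0, from -0.80 for Psmf1 to 0.86 for Psme2.

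The precision of these estimates limits what can be said of single genes. The 95% interval of a member's log2 change had a median half-width of 0.51, from 0.33 for the most evenly measured member to 0.84 for the least. A member that missed the test may thus differ by an amount inside its interval, and no statement of equality follows.

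The constitutive and inducible catalytic subunits were compared first. Psmb5 encodes the constitutive beta5 subunit with chymotrypsin-like activity. Its normalised read count was 74.4, 184.6, 132.2, 94.1 and 83.2 in Rragc+/+ replicates 1 to 5 and 78.2, 61.0, 83.6 and 87.8 in RragcS74N/+ replicates 1 to 4. Rragc+/+ replicate 2 was the highest library and the genotypes overlapped. The log2 change was -0.48 (SE 0.25, 95% interval -1.02 to 0.067, limma unadjusted p = 0.081). It was -0.28 without Rragc+/+ replicate 2 and -0.24 with the base-composition trend removed.

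Psmb8 encodes beta5i, which takes the place of beta5. Its count was 112.6, 116.8, 103.1, 64.3 and 89.2 in Rragc+/+ and 86.9, 77.3, 109.2 and 105.6 in RragcS74N/+. Every RragcS74N/+ value lay within the Rragc+/+ range. Its log2 change was -0.020 (SE 0.21, 95% interval -0.46 to 0.42).

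The beta1 pair showed the widest spread of the 3. Psmb6, the constitutive beta1 subunit with caspase-like activity, read 83.0, 178.8, 93.7, 86.0 and 84.2 in Rragc+/+ and 55.7, 67.1, 86.6 and 92.0 in RragcS74N/+. Psmb9, its inducible partner beta1i, read 171.9, 42.1, 123.7, 78.8 and 118.3 in Rragc+/+ and 93.5, 106.7, 106.2 and 147.4 in RragcS74N/+. Rragc+/+ replicate 2 thus held the highest Psmb6 and the lowest Psmb9 of the 9 libraries. The log2 changes were -0.43 for Psmb6 (SE 0.25, 95% interval -0.97 to 0.097) and 0.21 for Psmb9 (SE 0.33, 95% interval -0.49 to 0.91). Without Rragc+/+ replicate 2 they were -0.23 and -0.086, and with the base-composition trend removed -0.22 and 0.29.

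The beta2 pair was unlike the others in level. Psmb7, the constitutive beta2 subunit with trypsin-like activity, read 109.3, 71.3, 75.9, 52.3 and 114.3 in Rragc+/+ and 69.6, 74.2, 99.4 and 113.9 in RragcS74N/+. Psmb10, the inducible beta2i, read 7.24, 18.7, 14.1, 11.3 and 11.0 in Rragc+/+ and 11.9, 6.10, 15.1 and 10.5 in RragcS74N/+. Psmb10 was the lowest of all 45 members, with a mean normalised read count of 11.8 over the 9 libraries and between 6 and 20 reads per library. Both genotypes overlapped for both genes, with log2 changes of 0.11 for Psmb7 (SE 0.25, 95% interval -0.42 to 0.63) and -0.18 for Psmb10 (SE 0.34, 95% interval -0.90 to 0.54).

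**Figure D2:**
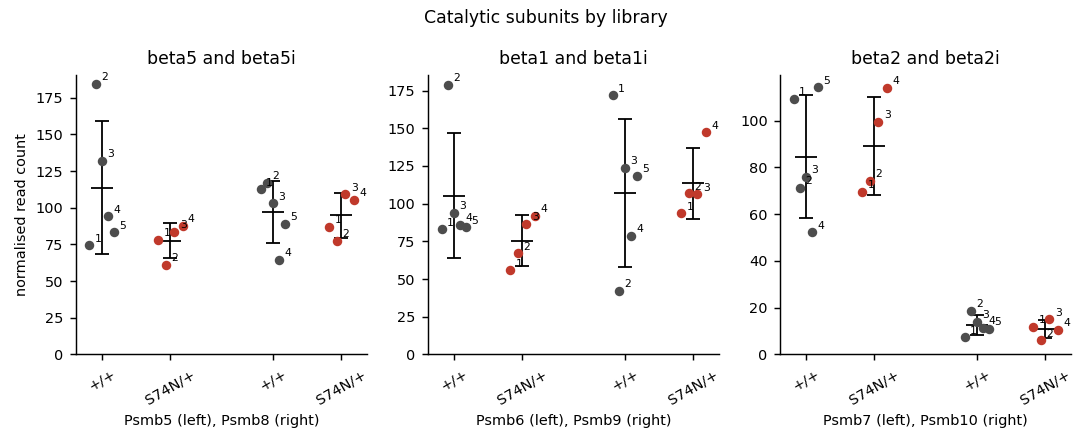
Normalised read count of the constitutive and inducible catalytic subunits in each library, by pair. Points are libraries with their replicate number, grey for Rragc+/+ (+/+, n = 5) and red for RragcS74N/+ (S74N/+, n = 4), and bars are the mean ± SD. Psmb10 lies far below Psmb7 in every library. Psmb8 and Psmb9 lie nearer to Psmb5 and Psmb6 in most libraries. In Rragc+/+ replicate 2, however, Psmb9 (42.1) is far below Psmb6 (178.8).

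Inducible and constitutive transcripts were next set against each other within each library, which removes any scaling common to a library. These ratios are given as a description, with no test. Psmb8 over Psmb5 was 1.51, 0.633, 0.780, 0.684 and 1.07 in Rragc+/+ and 1.11, 1.27, 1.31 and 1.20 in RragcS74N/+. The ratio was above 1 in 2 of 5 Rragc+/+ libraries and in 4 of 4 RragcS74N/+ libraries, but Rragc+/+ replicate 1 exceeded all of the latter, so the genotypes overlapped (0.936 ± 0.365 and 1.22 ± 0.086, SD, n = 5 and 4).

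Psmb9 over Psmb6 was 2.07, 0.235, 1.32, 0.916 and 1.40 in Rragc+/+ and 1.68, 1.59, 1.23 and 1.60 in RragcS74N/+. It exceeded 1 in 3 of 5 and in 4 of 4 libraries, with overlap again (1.19 ± 0.676 and 1.52 ± 0.203). Without Rragc+/+ replicate 2 the Rragc+/+ ratio was 1.43 ± 0.479, and the log2 difference between genotypes moved from 0.64 to 0.14. Psmb10 over Psmb7 was 0.066, 0.262, 0.185, 0.215 and 0.096 in Rragc+/+ and 0.171, 0.082, 0.152 and 0.092 in RragcS74N/+. Here no library reached 1, and the means stood the other way round (0.165 ± 0.082 and 0.124 ± 0.044). That direction was not stable, since the log2 difference of -0.29 was -0.087 without Rragc+/+ replicate 2 and 0.021 with the base-composition trend removed.

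The 3 inducible genes summed over the 3 constitutive genes gave 1.09, 0.409, 0.798, 0.664 and 0.776 in Rragc+/+ and 0.945, 0.940, 0.855 and 0.897 in RragcS74N/+. The RragcS74N/+ libraries fell in a narrow band inside the wide Rragc+/+ range (0.909 ± 0.042 and 0.748 ± 0.248). The lowest and highest libraries were both Rragc+/+, replicate 2 and replicate 1. Without replicate 2, whose profile stood apart, the Rragc+/+ ratio was 0.833 ± 0.183, and the log2 difference between genotypes moved from 0.35 to 0.15. The summed constitutive genes read between 232.3 and 434.7 in Rragc+/+ and between 202.3 and 293.7 in RragcS74N/+, whereas the summed inducible genes read between 154.3 and 291.8 and between 190.1 and 263.4.

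The single gene whose genotypes did not overlap was Psmf1. It encodes PI31, a protein that inhibits the isolated core particle in vitro and is also described as an adaptor in proteasome transport. Its count was 24.4, 23.4, 27.2, 19.3 and 20.1 in Rragc+/+ and 13.3, 7.12, 15.8 and 16.7 in RragcS74N/+. Every RragcS74N/+ library lay below every Rragc+/+ library, a pattern found in 1 of 45 members and in 68 of 6673 genes in that direction (1.02%). No member lay higher in this way, against 45 genes (0.674%). The log2 change was -0.80 (SE 0.27, 95% interval -1.38 to -0.21), with a limma unadjusted p of 0.011 and an adjusted p of 0.713.

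The Psmf1 values rest on between 7 and 37 reads per library. The unadjusted p stayed under 0.05 in each of the alternative fits that tested the gene, between 0.0039 with library weights and 0.045 without RragcS74N/+ replicate 2. Most of the listed erythroid genes, though not Car2, were lower in the same genotype. Their part in the difference was not tested.

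The genes of the PA28 activator did not move together. Psme1 and Psme2 encode the alpha and beta chains of 1 ring, which binds the immunoproteasome and is also induced by interferon gamma. Psme2 read 75.1, 16.4, 42.2, 57.9 and 68.2 in Rragc+/+ and 68.3, 82.3, 79.1 and 113.9 in RragcS74N/+. Rragc+/+ replicate 1 was above the lowest RragcS74N/+ library, and replicate 2 was far below all others. The log2 change was 0.86 (SE 0.36, 95% interval 0.0835 to 1.63, limma unadjusted p = 0.032). Without Rragc+/+ replicate 2 the log2 change was 0.50 and the unadjusted p 0.040. The unadjusted p was over 0.05 without Rragc+/+ replicate 3 (0.057), without RragcS74N/+ replicate 2 (0.056), 3 (0.051) or 4 (0.093), and in edgeR (0.052).

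Psme1 read 104.1, 170.6, 130.3, 98.1 and 84.2 in Rragc+/+ and 110.7, 100.6, 103.2 and 65.8 in RragcS74N/+. It was highest in the very library where Psme2 was lowest. This gave Psme1 a log2 change of -0.28 (SE 0.23, 95% interval -0.78 to 0.21), which was -0.14 without that library, -0.12 without RragcS74N/+ replicate 4 and -0.10 with the base-composition trend removed. Psme2 over Psme1 was 0.096 in Rragc+/+ replicate 2, 0.324 to 0.810 in the other Rragc+/+ libraries and 0.617 to 1.73 in RragcS74N/+. Psme2 reads are uncertain in a way that Psme1 reads are not: the last 500 bases of Psme2 match Psme2b at 99.0% identity, and Psme2b was not listed. Psma4, Psma5, Psmb3, Psmb5, Psmc1, Psmd1 and Psmd2 also have another transcript with at least 95% identity over at least 200 of these bases, none of them listed, so the counts of these 8 members may hold reads of a copy or lack reads shared with it.

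Psme3, which encodes the nuclear PA28 gamma, read 23.7, 40.9, 27.2, 30.5 and 22.1 in Rragc+/+ and 21.2, 33.5, 23.3 and 23.0 in RragcS74N/+. Psme4, which encodes PA200, read 85.0, 66.6, 83.4, 86.8 and 111.3 in Rragc+/+ and 144.5, 101.7, 88.9 and 92.0 in RragcS74N/+. Both overlapped, with log2 changes of -0.17 (SE 0.24) and 0.29 (SE 0.20). The first was -0.044 without Rragc+/+ replicate 2, and the second 0.14 without RragcS74N/+ replicate 1. Summed over the 4 activator genes, the counts were 287.8, 294.46, 283.1, 273.3 and 285.7 in Rragc+/+ and 344.8, 318.2, 294.49 and 294.71 in RragcS74N/+. The sums met at the edge, and 2 of the 4 genes had a lower and 2 a higher mean, so the sum does not describe any of them.

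**Figure D3:**
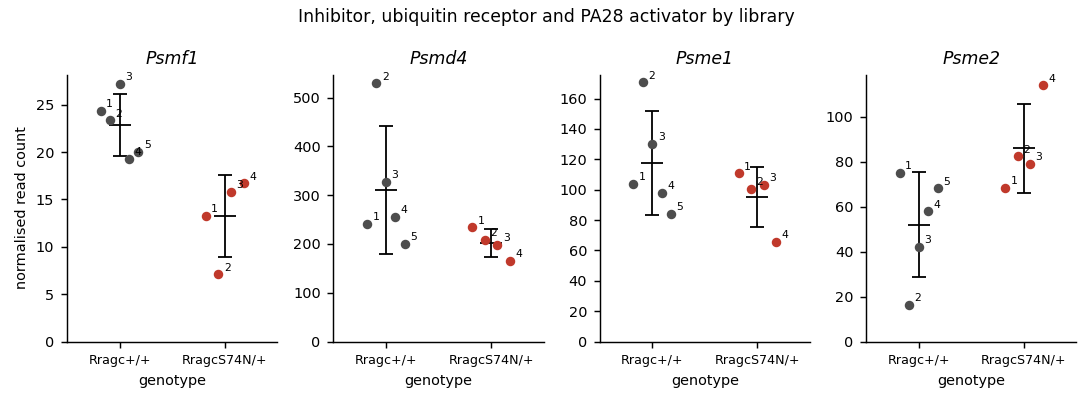
Normalised read count of Psmf1, Psmd4, Psme1 and Psme2 in each library. Points are libraries with their replicate number, grey for Rragc+/+ (n = 5) and red for RragcS74N/+ (n = 4), and bars are the mean ± SD. The genotypes separate for Psmf1 only, and Rragc+/+ replicate 2 is the extreme library for the other 3 genes.

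The alpha ring was where the member levels were highest. Psma2 had the highest mean of all members (730.1) and Psma5 the lowest of the ring (32.9), a 22.2-fold range for subunits present in equal number in the particle. Of the 7 genes 6 had a higher mean in RragcS74N/+, none with an unadjusted p under 0.05. The summed ring read 1984, 1254, 1544, 1910 and 2436 in Rragc+/+ and 1649, 2424, 1875 and 3260 in RragcS74N/+. The highest sum was in RragcS74N/+ replicate 4 and the lowest in Rragc+/+ replicate 2, and the others were interleaved.

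Psma5 and Psma1 were the ring genes with the smallest p. Psma5 read 28.3, 10.5, 22.5, 17.7 and 53.1 in Rragc+/+ and 29.2, 34.6, 35.4 and 64.8 in RragcS74N/+, a log2 change of 0.74 (SE 0.38, limma unadjusted p = 0.072). Psma1 read 266.7, 108.7, 164.0, 184.9 and 340.9 in Rragc+/+ and 222.1, 318.2, 234.2 and 461.9 in RragcS74N/+, a log2 change of 0.58 (SE 0.31, limma unadjusted p = 0.080). Both were lowest in Rragc+/+ replicate 2 and highest in RragcS74N/+ replicate 4, and the genotypes overlapped. Without the first of these libraries their log2 changes were 0.47 and 0.37, and without the second 0.50 and 0.37.

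The 4 non-catalytic beta subunits ran from Psmb3 (mean 248.4) to Psmb2 (23.5). Psmb2 read 15.1, 12.9, 24.4, 26.5 and 23.1 in Rragc+/+ and 17.9, 29.5, 25.6 and 36.6 in RragcS74N/+, with overlap and a log2 change of 0.42 (SE 0.28). The other 3 had log2 changes between -0.050 and 0.19.

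In the base, the ATPase genes ran from Psmc6 (mean 173.2) to Psmc5 (16.7), with 3 of 6 lower, 3 higher and none under an unadjusted p of 0.05. Psmd4 was the highest of the other base genes and encodes Rpn10, a receptor for ubiquitin chains. It read 241.0, 529.3, 328.0, 255.6 and 200.5 in Rragc+/+ and 234.1, 208.4, 198.8 and 166.2 in RragcS74N/+. Rragc+/+ replicate 2 was above all others and replicate 5 lay inside the RragcS74N/+ range. The log2 change was -0.54 (SE 0.25, 95% interval -1.07 to -0.0145, limma unadjusted p = 0.045). It was -0.33 with an unadjusted p of 0.095 without Rragc+/+ replicate 2, and -0.30 with an unadjusted p of 0.14 once the trend with base composition was removed from each library. It was also over 0.05 without Rragc+/+ replicate 3 (0.088) and without RragcS74N/+ replicate 2 (0.070), 3 (0.079) or 4 (0.12).

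The lid genes ran from Psmd13 (mean 136.9) to Psmd11 (21.3). 3 of 8 had a negative and 5 a positive log2 change, with values between -0.34 and 0.37 and none under an unadjusted p of 0.05. Psmd14, the deubiquitinase of the lid, had a log2 change of -0.014 (SE 0.21).

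Among the assembly chaperones, which build the particle and leave it, the highest was Psmd10 (mean 109.7) and the lowest Psmg4 (12.3). Psmd10 encodes gankyrin, which escorts an ATPase of the base. It read 109.3, 128.5, 119.0, 108.5 and 133.3 in Rragc+/+ and 90.2, 88.4, 97.2 and 112.9 in RragcS74N/+. 3 of 4 RragcS74N/+ libraries were below every Rragc+/+ library, and replicate 4 was not. Psmd10 thus had a log2 change of -0.30 (SE 0.16, 95% interval -0.65 to 0.0445, limma unadjusted p = 0.083). The 5 chaperones had 3 lower and 2 higher means, none under an unadjusted p of 0.05, and Psmg1 and Psmg2 were not listed.

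Over the 9 libraries of both genotypes, the highest exceeded the lowest by a median of 2.28-fold over the 45 members, from 1.43-fold for Psma7 to 6.96-fold for Psme2. Rragc+/+ replicate 2 was the highest library for 13 members and the lowest for 17, and RragcS74N/+ replicate 4 was the highest for 11. The deviation of a member in a library was taken from its mean over the other 8 libraries, on log2 of the count plus 1. In Rragc+/+ replicate 2 the SD of the members' deviations was 0.84, against 0.26 to 0.50 in the other 8 libraries. Subunits of the same sub-complex went opposite ways there: Psmc1, an ATPase of the base, read 280.4 in that library and 61.7 to 135.9 elsewhere, whereas Psmc2, its neighbour in the ATPase ring, read 53.8 and 87.2 to 129.1.

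**Figure D4:**
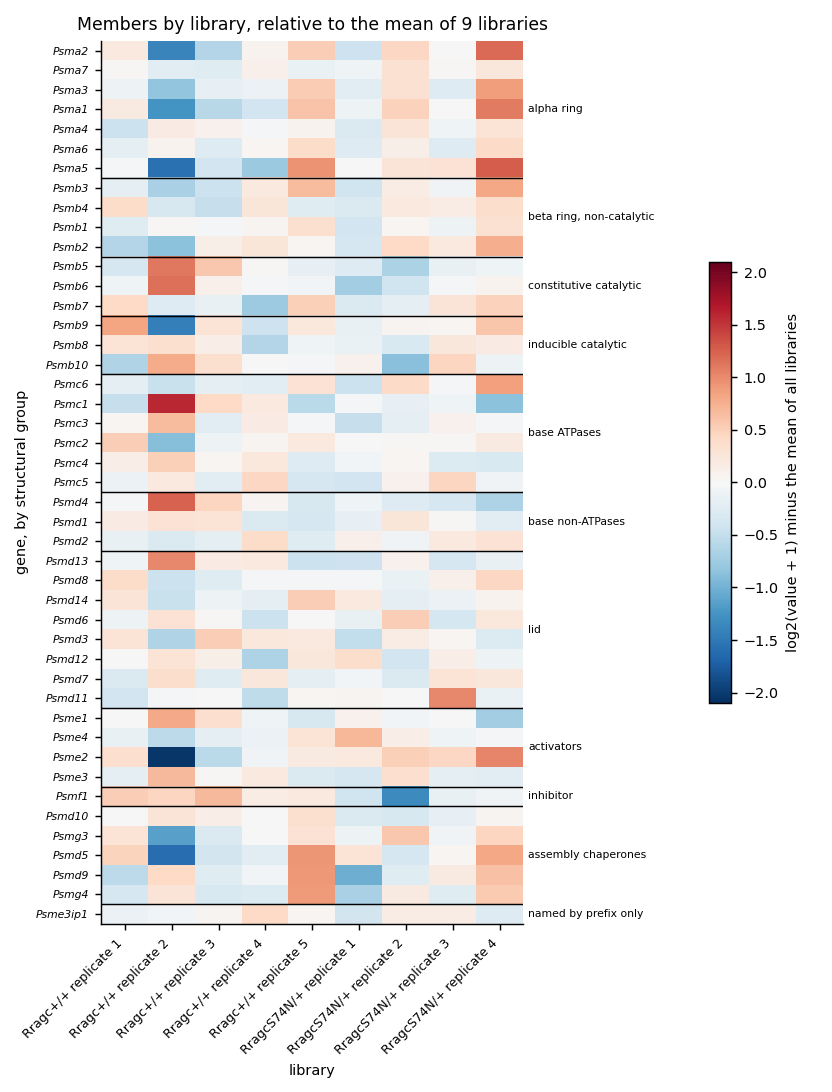
Deviation of each member in each of the 9 libraries from its mean over the other libraries, on log2 of the normalised read count plus 1. The picture's labels name the mean of all libraries instead. Genes are ordered by structural group, with libraries in columns. Red is above and blue below the mean. The strongest colours are in Rragc+/+ replicate 2, in both directions, and in RragcS74N/+ replicate 4, red throughout the alpha ring.

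In some libraries the deviations moved with the base composition of the transcript end. G or C made up between 29.8% and 58.2% of the last 500 bases of the members' transcripts. Across the 45 members, Spearman's rho between this share and the deviation was -0.064, 0.34, 0.28, 0.35 and -0.43 in Rragc+/+ replicates 1 to 5 and -0.15, -0.22, 0.19 and -0.40 in RragcS74N/+ replicates 1 to 4. Over 6645 genes the values in the same order were 0.066, 0.38, 0.25, 0.22 and -0.23, and -0.40, -0.19, -0.021 and -0.23. The members and all genes thus differed in sign in Rragc+/+ replicate 1 and RragcS74N/+ replicate 3, and RragcS74N/+ replicate 1, where all genes had their lowest value, did not have the lowest value of the members. These are correlations across genes, which are not independent replicates and share a library, so they are given as a description. Their part in the differences between genotypes was not tested beyond removing the trend. With the trend removed, 3 members passed an unadjusted p of 0.05 (Psmf1, Psme2 and Psmd10) against 3.90% of all genes, and the log2 changes of Psmb8 and Psmb10 were above 0, at 0.20 and 0.16.

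**Figure D5:**
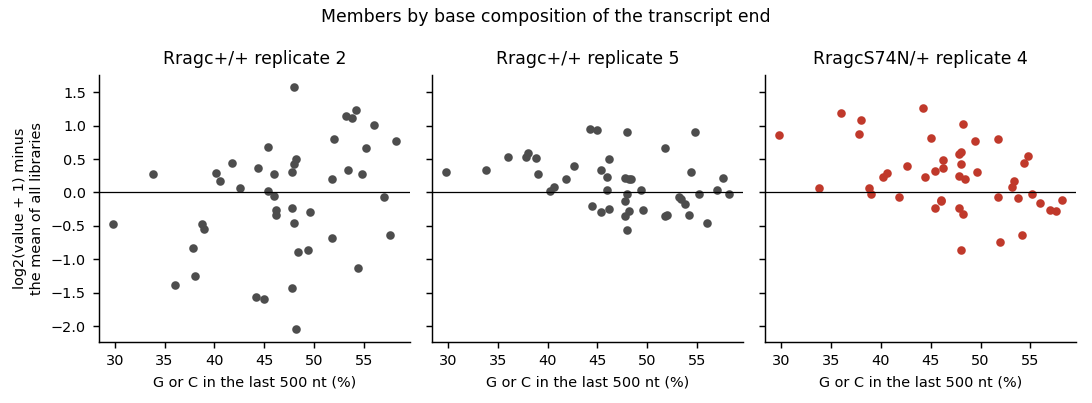
Deviation of each of the 45 members from its mean over the other libraries (log2 of the normalised read count plus 1), in 3 libraries. The axis label names the mean of all libraries instead. The horizontal axis is the share of G or C in the last 500 bases of the transcript. Each point is a gene. The cloud tilts upward in Rragc+/+ replicate 2 and downward in Rragc+/+ replicate 5 and RragcS74N/+ replicate 4.

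Promoters of the genes that carried these comparisons are printed because textbook regulation of the family acts there. The windows are the 250 bases before the RefSeq start of transcription on mouse build GRCm38.p6, a different build from the alignment, with the strand of the gene given. They are written 5′ to 3′, and capitals mark the first match to a pattern where the window held it. Psmb5 (chr14:54617996-54618245, minus strand) shows a match to the antioxidant response element, Psmb8 (chr17:34197945-34198194, plus strand) to the gamma-activated site, Psmd4 (chr3:95042615-95042864, minus strand) to the interferon-stimulated response element, and Psme2 (chr14:55591022-55591271, minus strand) to the antioxidant response element. A second Psme2 window from another start (chr14:55591102-55591351) held no match to that element and is not printed. Psmf1 (chr2:151741311-151741560, minus strand) held no match to these 3 patterns or to the CCAAT box.
Psmb5: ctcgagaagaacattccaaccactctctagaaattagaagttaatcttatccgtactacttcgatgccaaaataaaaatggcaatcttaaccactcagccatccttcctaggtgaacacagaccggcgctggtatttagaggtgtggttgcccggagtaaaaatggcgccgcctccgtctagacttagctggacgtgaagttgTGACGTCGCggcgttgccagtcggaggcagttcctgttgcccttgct
Psmb8: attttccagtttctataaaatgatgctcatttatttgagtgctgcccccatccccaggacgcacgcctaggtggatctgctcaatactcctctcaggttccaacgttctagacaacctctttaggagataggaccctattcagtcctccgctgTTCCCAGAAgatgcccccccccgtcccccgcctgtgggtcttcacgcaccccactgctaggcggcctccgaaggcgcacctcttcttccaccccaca
Psmd4: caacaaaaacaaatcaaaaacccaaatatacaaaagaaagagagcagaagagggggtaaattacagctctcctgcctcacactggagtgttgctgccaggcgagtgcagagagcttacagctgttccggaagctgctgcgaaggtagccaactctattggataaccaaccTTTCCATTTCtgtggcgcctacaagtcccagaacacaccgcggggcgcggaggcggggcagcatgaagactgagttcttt
Psme2: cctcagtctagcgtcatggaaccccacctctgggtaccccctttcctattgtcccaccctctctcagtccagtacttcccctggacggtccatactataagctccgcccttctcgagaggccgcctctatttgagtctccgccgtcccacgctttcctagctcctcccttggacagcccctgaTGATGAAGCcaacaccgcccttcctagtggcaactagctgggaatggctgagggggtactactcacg
Psmf1: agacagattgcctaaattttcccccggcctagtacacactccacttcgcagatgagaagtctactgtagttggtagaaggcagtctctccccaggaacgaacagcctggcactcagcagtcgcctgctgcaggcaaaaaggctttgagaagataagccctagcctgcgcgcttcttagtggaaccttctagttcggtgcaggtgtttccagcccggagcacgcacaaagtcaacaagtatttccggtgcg

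The patterns searched on both strands were GAAA, any 2 bases and GAAA for the interferon-stimulated response element, TTCNNNGAA for the gamma-activated site bound by STAT factors, TGANNNNGC for the antioxidant response element and CCAAT for the CCAAT box, and none of the 4 contains another. RefSeq gave 43 windows for 39 of the 45 members. The interferon-stimulated response element was found in 6.98% of the members' windows (those of Psmb3, Psmd4 and Psmd9) and in 2.98% of all 32851 windows. The gamma-activated site was found in 2.33% and 7.02%, the antioxidant response element in 37.2% and 35.2%, and the CCAAT box in 32.6% and 33.8%. Of the 3 inducible catalytic genes, Psmb8 held the gamma-activated site, Psmb9 the antioxidant response element and the CCAAT box, and Psmb10 none of the 4. Of the constitutive ones, Psmb5 and Psmb6 held the antioxidant response element and Psmb7 had no window. A match is a description of letters and not a binding site.

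Genes that work with the proteasome were described from a list of 42, of which 37 were listed and 34 tested. 15 had a negative and 19 a positive log2 change, and their median log2 change was 0.051 beside 0.024 for all genes. 0 passed after adjustment. At an unadjusted p under 0.05, 1 was lower and 1 was higher, which is 2 of 34 beside 5.81% of all genes. H2-K1, a class I heavy chain, was 355.9 ± 111.3 in Rragc+/+ and 494.6 ± 59.9 in RragcS74N/+ (SD, n = 5 and 4), a log2 change of 0.53 (SE 0.24, limma unadjusted p = 0.042). Tapbp, which encodes tapasin, was 321.7 ± 144.7 and 166.5 ± 49.6, a log2 change of -0.85 (SE 0.36, limma unadjusted p = 0.034). Rragc+/+ replicate 2 held the lowest H2-K1 and the highest Tapbp, and without it neither had an unadjusted p under 0.05. In all, H2-K1 missed that level in 7 and Tapbp in 6 of the 9 fits that left out 1 library.

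The genotypes overlapped for H2-K1 and Tapbp, and for the other genes of the list as well. Sem1, a small subunit of the lid whose symbol lies outside the rule, had a log2 change of 0.96 (SE 0.48) and Rps27a, a ubiquitin fusion gene, of 0.34 (SE 0.26). Uba1, the ubiquitin-activating enzyme, had a log2 change of -0.39 (SE 0.20) and Uchl5, a deubiquitinase of the base, of -0.28 (SE 0.16). Pomp, the chaperone that matures the core particle, had a log2 change of 0.19 (SE 0.19). Nfe2l1, the transcription factor that induces proteasome subunits, had a log2 change of 0.14 (SE 0.33) at a mean of 17.2, and Irf1, which acts on the inducible subunits, of 0.012 (SE 0.19) at a mean of 352.5. Tap1, the peptide transporter gene beside Psmb9, had a log2 change of -0.26 (SE 0.26). None of 9 interferon-response genes passed an unadjusted p of 0.05, and their summed level was 1093 to 1549 in Rragc+/+ and 1024 to 1622 in RragcS74N/+.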

How the data were processed

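Neutrophil RNA was made into 3′-end libraries and, per the labels and the methods, reads were mapped by the authors on build GRCm39 using TopHat2 2.0.10 (Bowtie 1.0.0, SAMtools 1.9), counted them per gene on the stated strand with HTSeq 0.6.1 and divided them by DESeq size factors. Reads with several matches were allowed in alignment. The methods name a second-strand module with unique molecular identifiers for the neutrophil libraries. Whether these identifiers were used to remove duplicates is not given in the sources used here. The deposited values are therefore a normalised signal and not raw counts; low values fell on whole multiples of 1 read in every library (100% of values within 0.01 read), which gave the reads and depth. Every column was assigned to a sample by its title. Of 7197 genes, each with at least 1 read in at least 7 libraries and a highest count of at least 8, 6673 reached a mean value of 10 and entered limma 3.58.1 (trend, genotype as the only term, R 4.3.3) on log2(value + 1), with Benjamini-Hochberg adjustment and a threshold of 0.05. The added 1 shrinks the fold change of weakly expressed genes. Ratios and sums used untransformed values. edgeR 4.0.16 and DESeq2 1.42.0 on the recovered reads, other pseudocounts and filters, columns rescaled to 1 total, removal of a lowess trend with 3′ G and C content (span 0.5), library weights and leaving out each library were the alternatives. No pair of libraries within a genotype agreed within sampling noise (chi-square per degree of freedom at least 5.45). Values in every library were given for the 6 catalytic, the activator and inhibitor genes and members whose genotypes did not overlap. They were also given for the 4 higher and 4 lower members with the smallest p. Of associated genes, the 3 higher and 3 lower with the smallest p plus Pomp, Nfe2l1, Irf1 and Tap1 were named. These have a log2 change, with means for some, and not the value in every library. The members and all gene lists were chosen with earlier results of these data known. Intervals are for the difference between genotype means and do not span the single libraries. They use limma's standard error, built on the spread between libraries and moderated over all genes tested, with 13.82 degrees of freedom. Depth limits low members such as Psmb10 and Psmf1, where a library holds 6 to 37 reads. Transcript ends came from an annotation of GRCm38, used by gene name.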

Additional observations from a re-analysis of the deposited data

Results flagged for a closer look

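Of 136 sets of values examined (each member, ratio, group sum and named associated gene in each genotype), 10 held a library whose gap to its nearest neighbour was a larger part of the group's range than Dixon's 95% critical value, where chance alone would give about 1 in 20, or 6.8. In Rragc+/+ replicate 2, Psmb6 read 178.8 beside a next value of 93.7 (ratio of gap to range 0.842), Psmd3 read 23.4 beside 40.1 (0.733), and the ATPases of the base summed to 714.9 beside 563.7 (0.816), all on values plus 1 for the sum. In Rragc+/+ replicate 4, Psmd2 read 73.2 beside 52.0 (0.806), and in Rragc+/+ replicate 5 the assembly chaperones summed to 260.7 beside 199.9 (0.782), again plus 1. In RragcS74N/+ replicate 1, Tap1 read 220.8 beside 128.0 (0.846), and in replicate 2 Nfe2l1 read 9.15 beside 19.9 (0.885). In RragcS74N/+ replicate 3, Psmd11 read 39.2 beside 21.2 (0.838) and Psmb9 over Psmb6, with 1 added to each, was 1.22 beside 1.58 (0.832). In RragcS74N/+ replicate 4, Psmc1 read 61.7 beside 94.5 (0.847). Gap and range were taken on the log2 scale after adding 1, whereas the values printed here are not on that scale. None of these values enters a call, since no member passed the adjusted threshold.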

How the results depend on the processing

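No paired analysis was possible because replicate numbers appear nowhere in the labels and were assigned in accession order. No member and no associated gene passed an adjusted p of 0.05 under any of the 18 alternative fits. The count of members at an unadjusted p under 0.05, 3 as reported, was 6 with library weights and 1 to 7 when 1 library was left out, with the high count where Rragc+/+ replicate 5 was absent and the low count where Rragc+/+ replicate 3 or any of RragcS74N/+ replicates 2, 3 and 4 was. The share over all genes was 11.5% with library weights and 13.7% without Rragc+/+ replicate 5. It was 3.36% without Rragc+/+ replicate 3, and 3.83%, 6.19% and 3.37% without RragcS74N/+ replicates 2, 3 and 4. The count of associated genes, 2 as reported, was 1 in edgeR and in DESeq2, 5 with library weights, and 0 to 4 when 1 library was left out, beside 6.89%, 6.7%, 11.5% and 3.02% to 13.7% of all genes. Removing the base-composition trend moved the log2 difference of the summed lid genes from -0.063 to 0.060 and that of Psme3ip1 from -0.13 to 0.18, and turned Psmb8 to 0.20 and Psmb10 to 0.16. Library weights gave 0.033 for Psmb8, -0.068 for Nfe2l1 and -0.0045 for Irf1, and Irf1 was -0.030 in edgeR and -0.020 in DESeq2. Leaving out 1 library gave -0.052 to 0.23 for Psmb7, -0.16 to 0.072 for Psmb8, -0.086 to 0.42 for Psmb9, -0.35 to 0.047 for Psmb10, -0.011 to 0.42 for Nfe2l1 and -0.11 to 0.098 for Irf1, so their signs are not fixed by these data. The cause of these moves was not tested. Of 462 single-gene values under alternatives 441 kept their sign. Psmf1 was not tested with a minimum mean of 50. Of the ratios and group sums, 178 of 180 values moved by less than the pooled SD of libraries within genotype. That SD includes Rragc+/+ replicate 2 and is a wide measure. Signs still turned when 1 library was left out. The log2 difference went from 0.11 to -0.030 for the non-catalytic beta ring without RragcS74N/+ replicate 4. It went from 0.038 to -0.074 for the inducible genes without Rragc+/+ replicate 4, and from -0.075 to 0.0026 for the base ATPases without Rragc+/+ replicate 2.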
